A study of Mus musculus with 2 samples.

Results

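The cytosolic ribosomal protein genes were examined in total RNA of the mouse adrenal gland. They were taken by symbol, as protein-coding genes named Rpl or Rps with a digit, plus Rplp0, Rplp1, Rplp2 and Rpsa. Kinase genes of the Rps6k type and Rps19bp1 were left out. This gave 91 of 55536 annotated genes. Of these, 46 encode proteins of the large subunit, 31 encode proteins of the small subunit, and 14 are paralogs or coding copies outside the standard set. The first 77 are called the core genes below.

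The ribosome translates mRNA into protein, and its subunits each pair ribosomal RNA with a set of small basic proteins that are made in near-equal amounts. Most of these mRNAs are short, abundant and start with a pyrimidine stretch, the 5′ terminal oligopyrimidine (TOP) motif, through which growth signalling by mTOR controls their translation. Because they are abundant in the germ line, they have been copied into the mouse genome many times as intronless processed pseudogenes. Reads from the gene and from such a copy can be hard to tell apart. A few genes also have functional paralogs with restricted expression, such as Rpl3l in striated muscle and Rpl10l and Rpl39l in testis.

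The data are 2 total RNA libraries, replicate 1 and replicate 2, of adrenal glands from female B6CASTF1/J mice, an F1 hybrid with a CAST parent, aged 25 days. They form 1 group, so there was no comparison of conditions, and the comparisons made are between the libraries and between quantifications. Both were prepared from 300 ng of RNA by a strand-keeping (directional) protocol, with ERCC spike-ins, synthetic RNAs of known mixture, added. The labels are unclear on whether the libraries came from separate animals, so each SD covers only how these libraries differ and may reflect technique. In whole-gland RNA, fewer cells of a type and less RNA per cell cannot be told apart.

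Expected counts, which are estimated reads and need not be whole, summed to 19366343 in replicate 1 and 33728646 in replicate 2. Of these, 36.3% in replicate 1 and 66.1% in replicate 2 fell on 22014 nuclear protein-coding genes, with Lars2 left out. Levels are therefore given as coding TPM, a length-corrected abundance (TPM) rescaled to the same sum over those genes. The adrenal label fitted its markers: all 6 cortex genes and all 6 medulla genes of the marker lists reached 1 TPM in both libraries. The libraries differed in a liver list, whose 7 genes summed to 968 coding TPM in replicate 1 and 11.3 in replicate 2. Its defining member Alb had 683 coding TPM in replicate 1 and 10.3 in replicate 2. Each library was quantified in 2 ways, and the gene table, from the first quantification, is used unless the second is named.

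Genes of this family share long stretches of sequence with their copies. Of the 77 core genes, 74 had between them 979 copies in annotated transcripts of other genes. A copy had at least 90% identity over at least 80% of the coding sequence. Some of these other genes overlap the core gene, such as Gm45713 at Rpl13a, and were left out where copies are summed below. Of the copies, 930 were processed pseudogenes and 20 were annotated as protein-coding. Rpl21, with 77 copies, and Rpl7a, with 75, had the most, and Rpl8 and Rps3 were among the 3 core genes with none. For 19 core genes at least 1 copy matched the whole coding sequence without a difference. The coding stretches of Rpl10, a large-subunit protein near the catalytic centre, are shown beside its intronless copy Rpl10-ps3 and its testis paralog Rpl10l. They are coding bases 334 to 393, in mm10 at chrX:74272676-74272735 (plus strand), chr9:50344549-50344608 (minus strand) and chr12:66283965-66284024 (minus strand), each within 1 coding exon. The stretch was picked where Rpl10l differs most from Rpl10, so it is not typical of the whole coding sequence. Capitals mark bases that differ from the gene named first.
Rpl10: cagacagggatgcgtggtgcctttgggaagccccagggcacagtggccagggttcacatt
Rpl10-ps3: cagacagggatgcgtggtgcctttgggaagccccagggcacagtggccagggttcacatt
Rpl10l: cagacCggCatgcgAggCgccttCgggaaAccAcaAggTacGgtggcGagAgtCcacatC

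Over all 642 coding bases Rpl10-ps3 had 0 differences from Rpl10, whereas Rpl10l had 98 and no identical stretch longer than 23 bases. Rps27, a zinc-finger protein of the small subunit, shows the same contrast with its intronless copy Rps27rt and its paralog Rps27l. The stretches are coding bases 7 to 66, at chr3:90213242-90213301 (minus strand), chr9:114982642-114982701 (minus strand) and chr9:66946831-66946890 (plus strand). They were likewise picked where Rps27l differs most from Rps27.
Rps27: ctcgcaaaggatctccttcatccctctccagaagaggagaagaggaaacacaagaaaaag
Rps27rt: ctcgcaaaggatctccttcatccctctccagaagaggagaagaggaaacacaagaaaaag
Rps27l: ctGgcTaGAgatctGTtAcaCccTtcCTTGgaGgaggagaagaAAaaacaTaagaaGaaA

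Rps27rt had 0 differences from Rps27 over 252 coding bases, and Rps27l had 60. Rps12-ps3 likewise had 0 differences from Rps12 over 396 coding bases. Rps23-ps1, a processed pseudogene, had 0 differences from Rps23 over the 425 bases that could be compared. Reads that lie within these stretches hold no reference base that separates gene from copy. Counted over windows of 100 bases of the reference transcript, 100% of the windows of Rps12-ps3, 98.4% of Rps27, 95.8% of Rpl10-ps3 and 91.6% of Rpl10 also occur in transcripts of other genes. For 38 of the 91 genes at least 50% of windows were shared, and for 11, among them Rps3, Rps21, Rps27l and Rpl10l, none were.

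Together the 91 genes held 6.76% of coding TPM in replicate 1 and 6.67% in replicate 2. In counts, which do not correct for their short length, they held 1.80% in replicate 1 and 1.73% in replicate 2. In total 85 genes reached 1 TPM in both libraries, all 77 core genes among them. The median core gene stood at 757 ± 34.9 coding TPM for the large subunit and 800.4 ± 1.62 for the small subunit (SD of the library medians, n = 2). The interquartile range in the large subunit was 519 to 956 in replicate 1 and 471 to 959.6 in replicate 2. For the small subunit it was 604 to 1095 in replicate 1 and 685 to 1127 in replicate 2.

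The most abundant gene in both libraries was Rpl41, which encodes the smallest ribosomal protein, with 2659 coding TPM in replicate 1 and 2600.3 in replicate 2. Rpl23a, a protein at the exit of the peptide tunnel, followed with 2147 and 1860 (2004 ± 203, SD, n = 2). Rplp1, a stalk protein that recruits elongation factors, had 1858 and 1831. Next came Rps27 with 1718 ± 89.2 coding TPM and Rps24, mutated in some families with Diamond-Blackfan anaemia, with 1548 ± 249. The spread of Rps24 between the libraries was wider than its distance to Rps27 above it and Rpl13a below it, so these neighbours do not differ beyond their spread. Rpl13a had 1496 ± 4.41, Rps28 had 1366 ± 61.5 and Rpl19 had 1236 ± 184 coding TPM. These levels depended on the quantification, since in the second Rpl13a had 2180 ± 830, Rps28 had 1674 ± 28.8 and Rpl19 had 822 ± 348. The 10 highest genes in the gene table, with these among them, held 24.5% of the coding TPM of all 91.

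Among the genes that the rule adds by name, the stalk base Rplp0 had 819 coding TPM in replicate 1 and 723 in replicate 2. Its partner Rplp2 had 933 and 893, between the median and the upper quartile of the large subunit, and Rplp1 stood above both in both libraries. In the second quantification Rplp1 had 861 and 1070 coding TPM, against 1107 and 1049 for Rplp0 and 964 and 819 for Rplp2, so in replicate 1 Rplp1 stood below both. Rpsa, which encodes the small-subunit protein also known as the laminin receptor, had 595 coding TPM in replicate 1 and 701 in replicate 2.

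At the lower end stood 5 large-subunit genes. Rpl5, which with Rpl11 and 5S RNA binds Mdm2, had 78.9 coding TPM in replicate 1 and 69.5 in replicate 2. Rpl27 had 93.1 and 72.3, Rpl12 had 254 and 129, Rpl27a had 224 and 196, and Rpl10 had 166 and 370.1. Each of these except Rpl12 was called between the quantifications, with 508 and 356 coding TPM for Rpl5, 517 and 596 for Rpl27, 997 and 1119 for Rpl27a and 1292 and 1398 for Rpl10 in the second. The ratio of the highest to the lowest core gene was 33.7 in replicate 1 and 37.4 in replicate 2 in the gene table, and 19.97 and 13.8 in the second quantification. Across the 85 genes with enough counts, Spearman's rho of coding TPM between the libraries was 0.94, over genes that share the libraries and are not independent replicates.

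**Figure D1:**
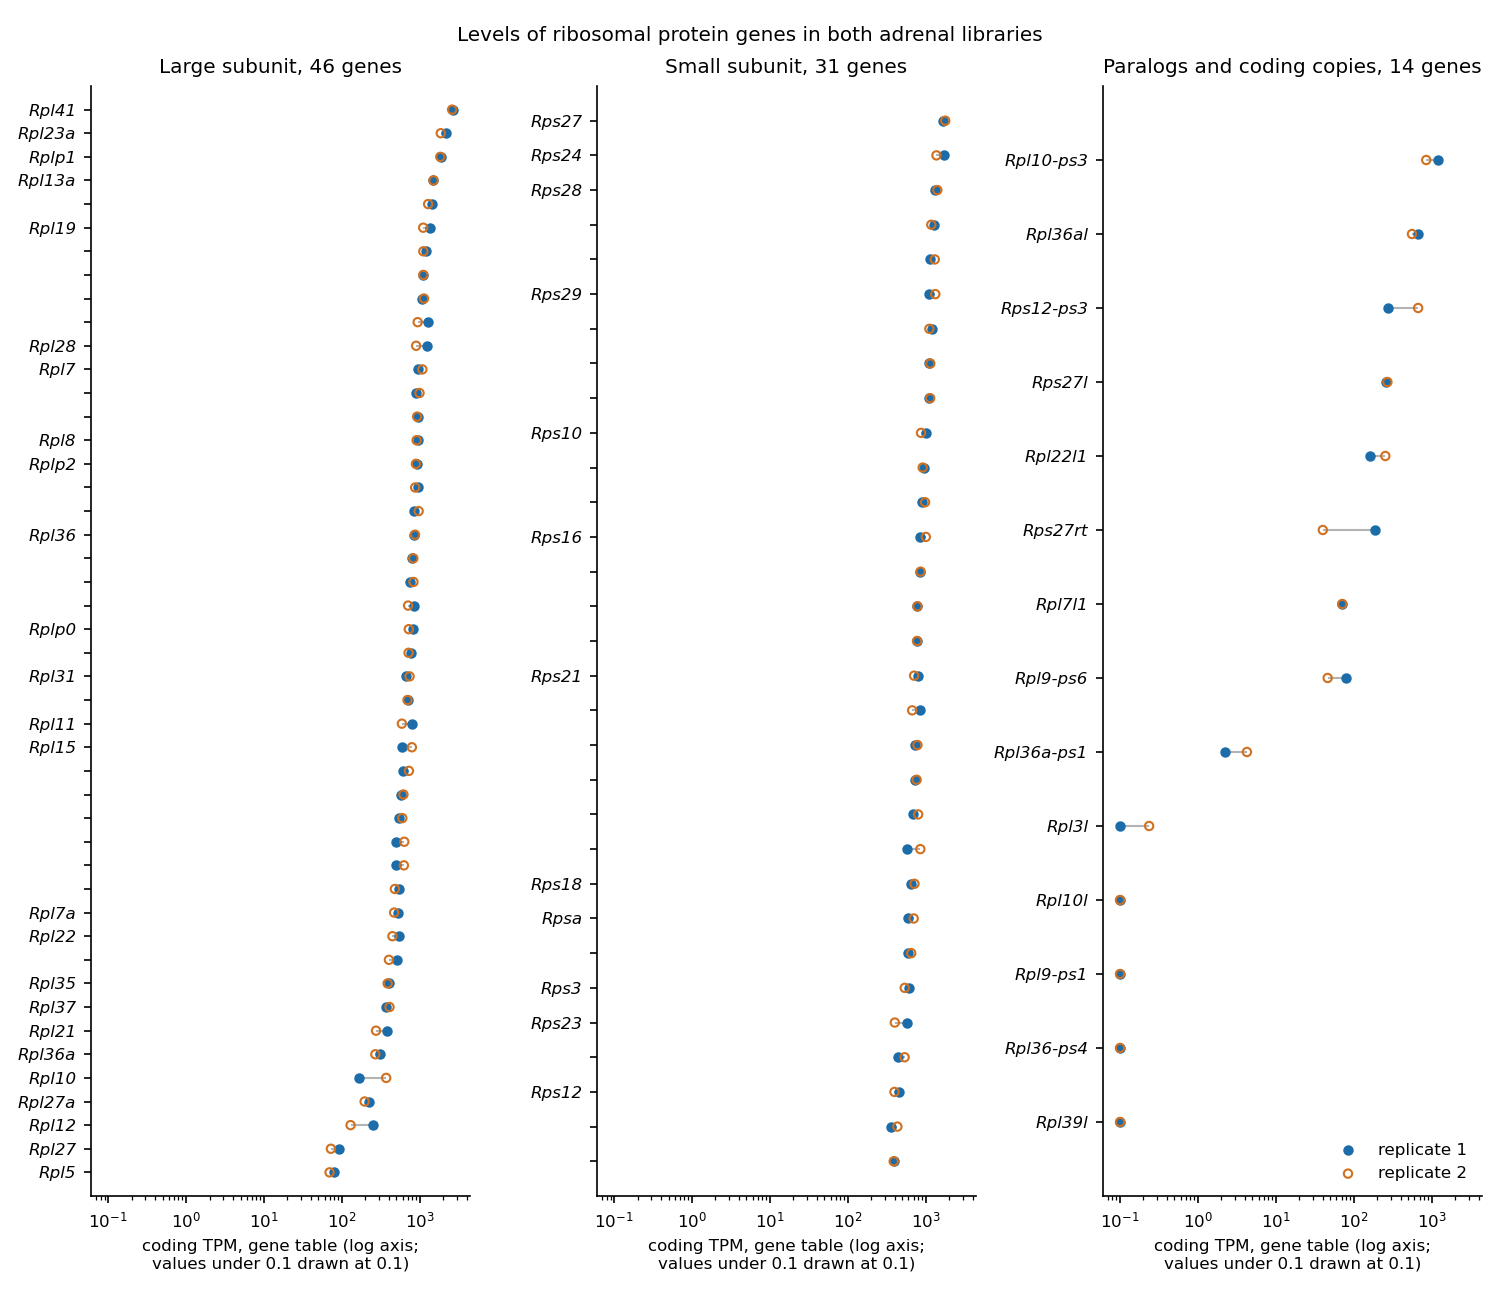
Coding TPM of each gene in the gene table on a log axis, with names for the genes described in the text, with filled points for replicate 1 and open points for replicate 2 and values under 0.1 drawn at 0.1. Nearly all core genes lie close together in both libraries, Rpl41 is highest at 2659 and 2600.3, and where the mean count reached 100, Rpl10, Rps12-ps3 and Rps27rt show the widest gaps.

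A feature of these genes that the choice by symbol did not use is the TOP motif. RefSeq start sites (GRCm38.p6) were found for 57 core genes. Runs of C or T letters only were counted from a C within 5 bases of a start and read on the transcribed strand. A run of at least 8 letters was present in 20 of the 57, or 35.1%. The same was found in 5.24% of 16521 protein-coding genes. By subunit it was present in 35.3% of 34 large-subunit genes and 34.8% of 23 small-subunit genes. It was present in 2 of 8 translation factors known for TOP mRNAs and in 0 of 16 genes of ribosome biogenesis. A gene without a run in this window may have one elsewhere. The bases before the first C were not checked, so a pyrimidine stretch may begin further upstream, as for Rpl34 and Rpl7a. The longest run is shown for 2 genes of each subunit, with the run in capitals, at chr7:109519183-109519212 (plus strand), chr14:18270970-18270998 (minus strand), chr17:27635231-27635255 (minus strand) and chr17:33955652-33955675 (minus strand).
Rpl27a: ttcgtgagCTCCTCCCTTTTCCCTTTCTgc
Rpl15: ggagaaagCCTTCTTCCTTTCCTCTggcg
Rps10: cgcgcacgCCCCTTCCTTTCCagcc
Rps18: cacttccgCTCTCTCTTCCacagg

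The 14 paralogs and coding copies fell into 3 sorts. Of the true paralogs, 4 were expressed. Rpl36al, a close relative of Rpl36a, was highest with 981 counts and 670 coding TPM in replicate 1 and 2558 counts and 559 coding TPM in replicate 2. Rps27l, a p53 target in human cells, had 258 and 270.4 coding TPM. Rpl22l1, which can take the place of Rpl22, had 161 and 254, and Rpl7l1, a relative of Rpl7, had 70.5 and 71.1. All 4 had similar counts in the second quantification, with 865 and 2605 for Rpl36al, 348 and 1031 for Rps27l, 241 and 1142 for Rpl22l1, and 462 and 1232 for Rpl7l1. In coding TPM Rpl22l1 stood below Rpl22, which had 541 in replicate 1 and 445 in replicate 2, and Rps27l stood below Rps27, which had 1655 and 1781. The TPM of Rpl22l1 lay mostly on processed transcripts, which lack an annotated coding sequence, with 77.5% in replicate 1 and 72.7% in replicate 2. In the second quantification they held 98.7% and 55.7%. For Rps27l they held 2.17% and 3.32% in the first, and 59.6% and 98.8% in the second. Rpl36al and Rpl7l1 had at least 96.0% on protein-coding transcripts in both quantifications. Rpl36al stood above Rpl36a, which had 309.9 and 269 in the first quantification and 402 and 429.6 in the second, where Rpl36al had 541 and 512. Rpl36al shares 59.0% of its windows with other genes, though only 28.6% with genes that do not overlap it, whereas Rps27l shares none.

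The tissue-restricted paralogs were at or near 0. Rpl10l and Rpl39l had 0 counts in both libraries and both quantifications, and Rpl3l had 0 counts in replicate 1 and 3 in replicate 2. A count of 0 allows up to 3 of the 19366343 counts in replicate 1 or of the 33728646 in replicate 2, for counting error only. No window of Rpl10l, Rpl39l or Rpl3l occurs in another gene. The marker lists of the tissues where these paralogs are known were read in the first quantification. There all 6 testis germ cell genes had 0 counts in both libraries, and no skeletal muscle gene reached 1 TPM in both. By the second quantification 1 of the testis genes had counts in both libraries.

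The third sort are intronless copies that the annotation calls protein-coding. Rpl10-ps3 had 2729 counts in replicate 1 and 6062 in replicate 2, Rps12-ps3 had 363 and 2817, Rps27rt had 172 and 117, and Rpl9-ps6 had 167 and 302. Rpl36a-ps1 had 2.62 and 15.8 counts, while Rpl9-ps1 and Rpl36-ps4 had 0 in both libraries. In the second quantification Rps27rt and Rpl9-ps6 had 0 counts in both libraries, Rpl10-ps3 had 186 in replicate 1 and 0 in replicate 2, and Rps12-ps3 had 143 and 78.2. The levels of these copies therefore depended on which quantification was read.

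To see where reads of genes and copies went, the first quantification was set against the second in each library. A gene was called where coding TPM plus 1 was 2-fold or more apart the same way in both. This held for 12 of the 91 genes, or 13.2%, against 1.5% of the 18383 protein-coding genes with a count. That background holds genes of any level, and the added 1 keeps those of little TPM from being called. The 2 shares were not matched for level. Lower in the first quantification were 7 (Rpl27, Rpl5, Rpl27a, Rpl10, Rpl37, Rpl31 and Rps23), and higher were 5 (Rps27rt, Rpl9-ps6, Rpl10-ps3, Rpl36a-ps1 and Rpl36). TPM also depends on the length correction: the first quantification took 99 bases off the length of each long transcript, and the second took 292 off in replicate 1 and 334 in replicate 2. On counts, which are estimates but are not divided by length, 11 genes were called, or 12.1%, against a background of 7.68%. They were Rpl10, Rpl27, Rpl5 and Rpl28, lower in the first quantification, and Rpl36, Rplp1, Rpl10-ps3, Rps12-ps3, Rps27rt, Rpl9-ps6 and Rpl36a-ps1, higher in it. With only 1 count added, background genes of few counts can be called here, and these shares were not matched for level either. The 91 also hold genes without a count, such as Rpl10l, which both backgrounds leave out.

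Rpl10 had 295 counts in replicate 1 and 2756 in replicate 2 by the first quantification, and 3052 and 9303 by the second. With its copies, the sum was 3032 and 8848 by the first quantification and 3247 and 9331 by the second. The log2 ratio of first to second quantification was -3.37 in replicate 1 and -1.75 in replicate 2 for the gene alone. For the sum it was -0.099 and -0.077, so the family was counted alike and divided differently. Rpl27 behaved in the same way, with 138 and 412.5 counts by the first quantification and 912 and 2909 by the second. Its copies Rpl27-ps3 and Gm11518, a name chosen after its values were seen, had identical counts of 384 in replicate 1 and 1189 in replicate 2 by the first. By the second they had 7.43 each in replicate 1 and 0 in replicate 2. The ratio for Rpl27 was -2.71 and -2.81 alone and -0.091 and -0.060 with copies.

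Rpl28, a large-subunit protein, had 1114 and 2615 counts by the first quantification and 2352 and 6445 by the second, while Rpl28-ps1 had 1072 and 3339 by the first and 0 in both libraries by the second. The summed ratio was 0.042 in both libraries. Rps23, which helps decode the codon, had 1147 and 1893 counts by the first and 1886 and 6299 by the second. Rps23-ps1 had 537 and 4074 by the first and 0 in both libraries by the second, and the summed ratio was -0.16 in replicate 1 and -0.081 in replicate 2. Rpl5 differed from these, because its copy Gm15500, also chosen after its values were seen, kept most of the family in both quantifications. It held 2589 and 8165 counts by the first and 1869 and 6155 by the second, against 407 and 1008 counts for Rpl5 by the first and 1493 and 3021 by the second.

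Over the 74 core genes with copies, the copies held 25.5% of the summed counts in replicate 1 and 23.2% in replicate 2 by the first quantification. By the second they held 13.0% and 11.6%. Alone, 33 of the 74 genes lay within 0.25 log2 units between quantifications in both libraries, and with copies summed 56 did. The median absolute log2 ratio was 0.22 in replicate 1 and 0.20 in replicate 2 alone, and 0.11 in both libraries with copies. With copies summed 2 of the 74 were still 2-fold or more apart in both libraries. These were Rpl36, with ratios of 1.31 and 1.98, and Rplp1, with 1.31 and 1.37. Both were higher in the first quantification, in which Rplp1 had 2517 and 7792 counts, against 842 and 2662 in the second. With copies summed, 5 families were 0.5 or more higher in the first quantification in both libraries: Rplp1, Rpl36, Rps28, Rps29 and Rpl23a. Their reference transcripts had 271 to 560 bases, against a median of 680.5 over the 74, and the part of length in this was not tested.

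**Figure D2:**
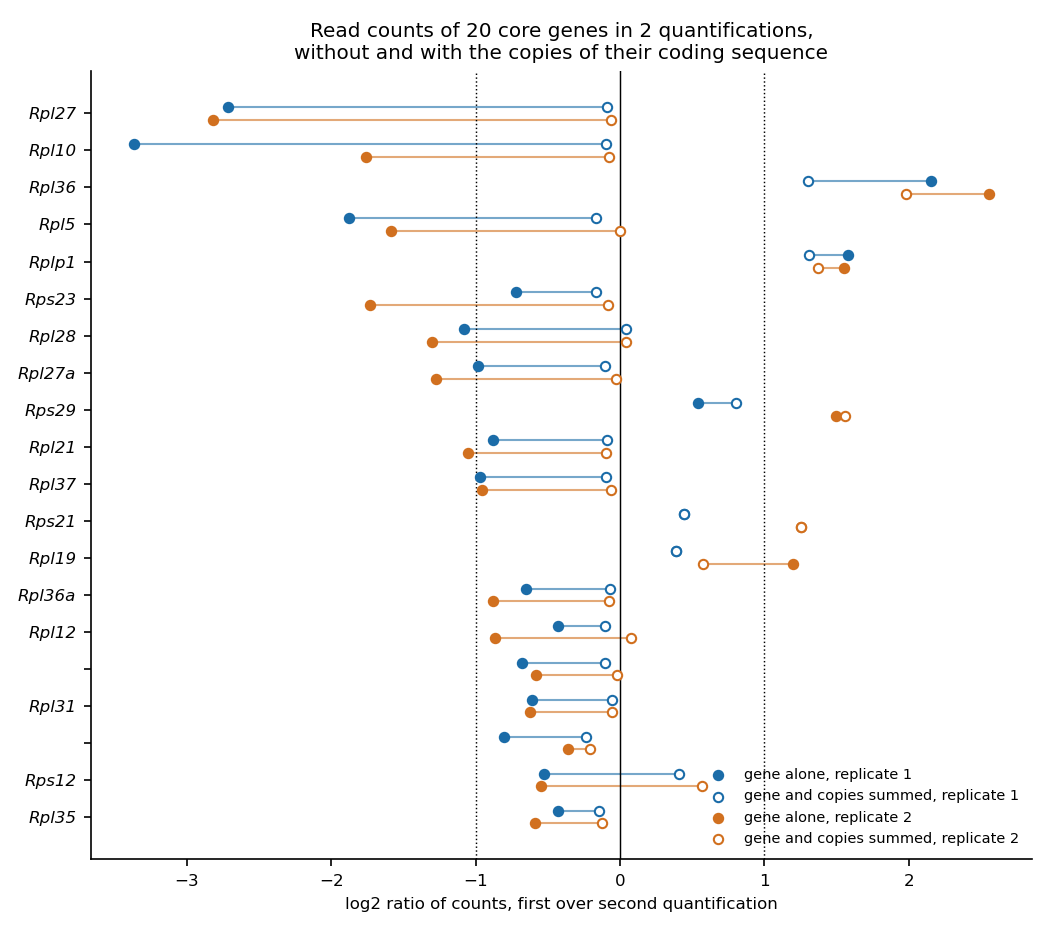
Log2 ratio of counts in the first over the second quantification for the 20 core genes furthest apart, with filled points for the gene alone and open points for the gene and its copies summed, in blue for replicate 1 and orange for replicate 2 (for Rps21 and for Rpl19 in replicate 1 the points coincide; genes not described in the text have no name). Dotted lines mark 2-fold. Rpl27, Rpl10, Rpl5 and Rpl28 return to between -0.17 and 0.042 once copies are added, while Rpl36 and Rplp1 stay above 1.

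The quantifications can also be set against the share of sequence held in common. Of the 85 genes with over 100 counts in all, 6 had no shared window, and their median absolute log2 ratio between quantifications was 0.081. None of these 6 was called on counts, though Rps21 reached an average of 0.85 with 0.44 in replicate 1 and 1.25 in replicate 2. Among 42 genes with under 50% of windows shared the median was 0.22 and 3 were called. Among the 37 with at least 50% it was 0.28 and 7 were called. Spearman's rho of the shared percentage with the ratio was 0.28 over the 85 genes, which is a weak relation. The deposited posterior SD, the uncertainty of each count within the first quantification, was also higher in the classes that share more. Its median was 0.013% of the count with no shared window, 0.83% below 50% and 2.13% from 50% up in replicate 1, and 0.0088%, 0.45% and 1.17% in replicate 2. Among these 85 genes it was largest for Rps27rt, at 46.4% in replicate 1 and 30.4% in replicate 2.

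The libraries were compared by the log2 ratio, replicate 1 over 2, with expected counts put on 1 scale by TMM, where the mean count reached 100. Of 85 genes tested, 3 were 2-fold or more apart, or 3.53%, against 0.701% of 10981 protein-coding genes. All 3 share sequence with a core gene or copy. Rps27rt had 172 counts in replicate 1 and 117 in replicate 2, a log2 ratio of 2.22. Rpl10 had 295 and 2756, a ratio of -1.54, and Rps12-ps3 had 363 and 2817, a ratio of -1.27. In the second quantification the ratio was 0.028 for Rpl10 and 2.48, of opposite sign, for Rps12-ps3, and Rps27rt had 0 counts in both libraries. With copies summed the ratio was 0.14 for Rpl10, 0.22 for Rps12 and 0.064 for Rps27. None of the 74 families was 2-fold apart in the first quantification, and the furthest, Rpl13a, had a ratio of 0.40. None was in the second either, where the furthest were Rps21 at 0.97, Rpl36 at 0.80 and Rps29 at 0.66.

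The next furthest were Rps23 at 0.96, Rpl9-ps6 at 0.83, Rpl12 at 0.67, Rpl22l1 at -0.61, Rpl11 at 0.59, Rpl10-ps3 at 0.53 and Rpl28 at 0.45. With copies summed Rps23 stood at -0.14, Rpl12 at 0.16, Rpl11 at 0.11 and Rpl28 at 0.23. Rpl22l1 kept its ratio, with 224 counts in replicate 1 and 1101 in replicate 2 by the first quantification and 241 and 1142 by the second, a ratio of -0.61 in both. An exact binomial test of its counts, Benjamini-Hochberg adjusted over every gene tested and covering counting error only, gave it an adjusted p of 2.3e-08. Copies were summed for core genes only, so not for Rpl22l1, although 40.6% of its windows also occur in Gm15421. In the second quantification other genes moved apart: Rpl19 had a ratio of 1.09 there, against 0.33 in the first, and Rps21 had 0.97, against 0.21. Its copy Rpl19-ps11 had 82.3 counts in replicate 1 and 1897 in replicate 2 in that quantification.

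By the same exact binomial test 55 of the 85 genes, or 64.7%, differed between the libraries at an adjusted p under 0.05, against 32.6% of protein-coding genes. The genes tested here had a median count of 2799, against 623 for protein-coding genes, and the median absolute log2 ratio was 0.16 in both. Of the 55, 37 were higher in replicate 1 and 18 lower. These calls used counts of the gene alone, and the test does not cover how reads were divided with copies. Among those called lower, Rpl15 went from -0.44 to 0.093 with copies summed, whereas Rps14 had -0.24 and -0.23. Among those called higher, Rps23 went from 0.96 to -0.14, whereas Rpl13a had 0.41 and 0.40. The median ratio of the 85 genes was 0.065, against -0.032 for coding genes. The gap was 0.095 to 0.097 under TMM, DESeq2 size factors, spike-in totals and total counts. This was bound to hold, because a change of scale shifts all ratios almost alike. The median itself was -0.065 with spike-ins and -0.82 with total counts. The liver genes named above were higher in replicate 1, 7 of 7, with a median log2 ratio of 7.59, as did 4 of 4 brown fat genes, with a median of 0.40. Of the gland's own markers, 5 of 6 cortex genes had a ratio below 0, with a median of -0.13, as did 4 of 6 medulla genes, with a median of -0.14. The part of these genes in the ratios of the ribosomal protein genes was not tested.

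**Figure D3:**
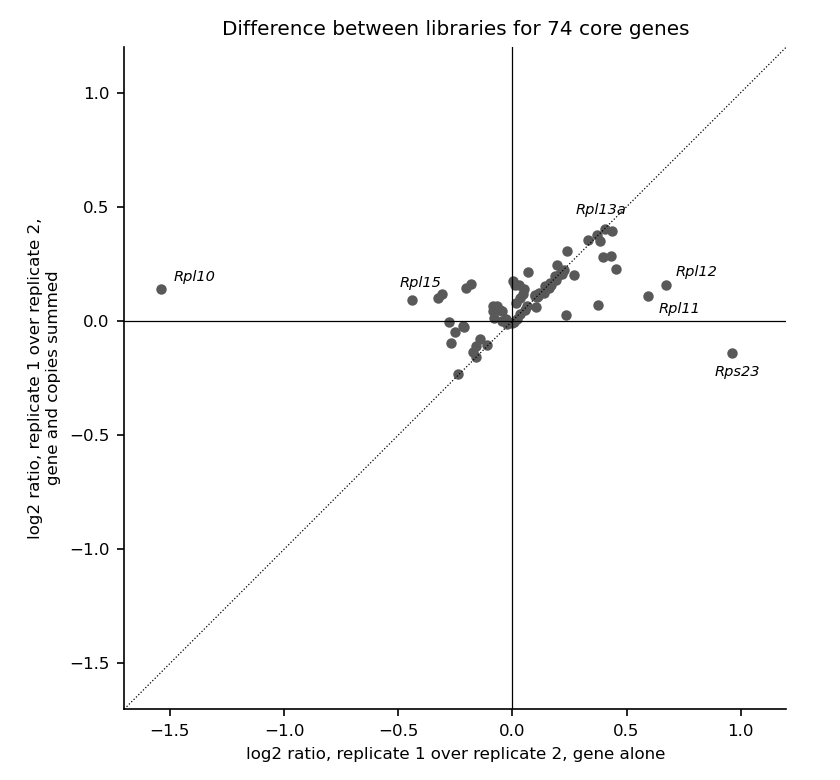
Log2 ratio of replicate 1 over replicate 2 for 74 core genes, with the gene alone on the x axis and the gene and its copies summed on the y axis; each point is a gene and the dotted line marks equal values. Rpl10 lies at -1.54 alone and 0.14 with copies, Rps23 at 0.96 and -0.14, and no point is beyond 0.40 on the y axis.

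The quantifications also placed reads on different transcripts of the same gene. Many core genes have annotated transcripts that keep an intron or lack a coding sequence, besides the mRNA. In the first quantification a transcript annotated as protein-coding was the most abundant for 62 of 77 core genes in replicate 1 and 64 in replicate 2, and in the second for 49 and 53. The median percent of a gene's TPM on protein-coding transcripts was 96.8 in replicate 1 and 97.4 in replicate 2 in the first quantification, and 73.98 and 87.5 in the second. For 16 genes in replicate 1 and 13 in replicate 2 less than 50% of the TPM was on such transcripts in the first, and for 27 and 23 in the second.

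Rps27 shows the gap between quantifications, with 99.3% of its TPM on protein-coding transcripts in replicate 1 and 99.2% in replicate 2 in the first, against 33.8% and 0.17% in the second. Other genes had their abundance on another class in both. Rps16 had 98.0% and 98.1% on retained-intron transcripts in the first quantification and 83.3% and 82.6% in the second. Rpl35 had 95.5% in both libraries on processed transcripts without an annotated coding sequence in the first, and 91.7% and 83.4% in the second. Rplp1, with 1 annotated transcript, and Rpl41, with 99.3% in both libraries in the first and 99.4% and 98.1% in the second, had nearly all of their TPM on protein-coding transcripts in both. Since TPM is per length, a shift to a short annotated transcript raises a gene's TPM without any change of its count.

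**Figure D4:**
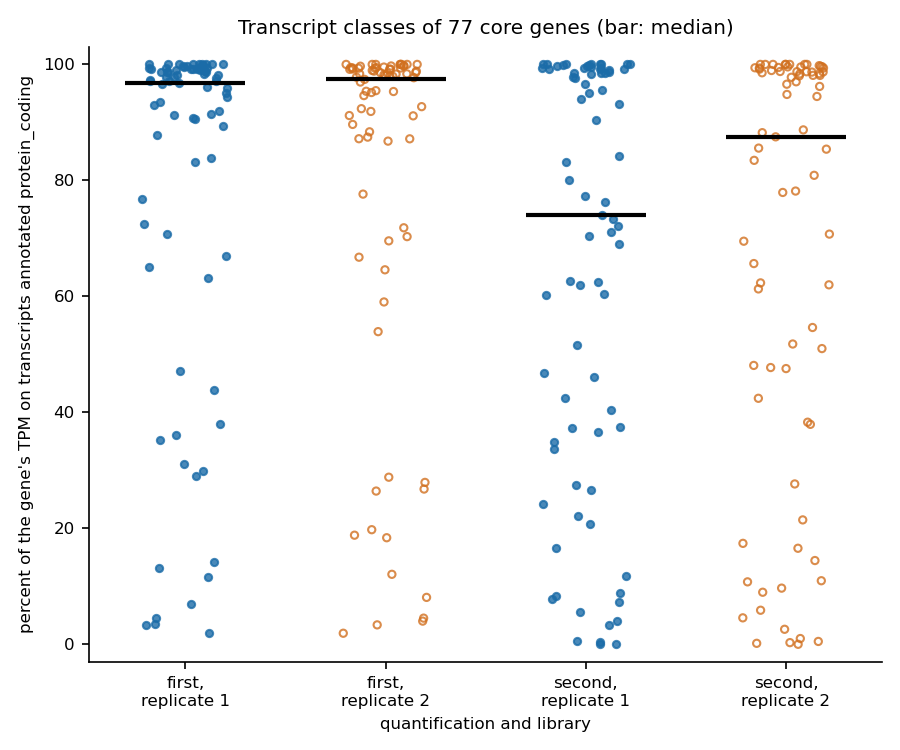
Percent of each core gene's TPM on transcripts annotated as protein-coding, with a point per gene and a bar at the median, by quantification and library. The medians are 96.8 and 97.4 in the first quantification and 73.98 and 87.5 in the second, with more genes near 0 in the second.

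Other genes of the translation apparatus were set beside the family. Fau, which encodes a ribosomal protein fused to a ubiquitin-like protein, and Rack1, a small-subunit scaffold, lie outside the symbol rule. Fau had 906 coding TPM in replicate 1 and 989 in replicate 2, and Rack1 had 682 and 582, both within the range of the core genes. The 14 translation factors with TOP mRNAs had a median of 372 ± 54.6 coding TPM and the 18 ribosome biogenesis genes 61.8 ± 1.92 (SD, n = 2). All 32 reached 1 TPM in both libraries. Eef1a1, which brings aminoacyl-tRNA to the ribosome, had 9101 coding TPM in replicate 1 and 6290.0 in replicate 2, above every ribosomal protein gene. Tpt1, which encodes translationally controlled tumour protein, had 2655 and 2578, close to Rpl41. None of the 14 or of the 18 was 2-fold apart between the libraries, beside 0.701% of protein-coding genes. By the exact binomial test 8 of the 14 factors differed, 7 higher and Eif4b lower in replicate 1, and 7 of the 18 biogenesis genes differed, all higher in replicate 1. The share over protein-coding genes was 32.6%, so 7 of 18 lies near it. The median log2 ratio was 0.075 for the factors and 0.20 for the biogenesis genes, beside 0.065 for the ribosomal protein genes.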

How the data were processed

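Total RNA of the adrenal gland was sequenced in 2 libraries, named replicate 1 and replicate 2 after the labels. Per the notes deposited beside the files, reads were quantified against mm10 with GENCODE M21 in 2 ways. For the programs, the sources used here give no name. Expected counts (estimated counts) and TPM, scaled by the authors to 1 sum per library, are among the deposited values. The deposited percent of a gene's abundance per transcript was recomputed from TPM. No value columns were left unmatched.

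From these, the second transcript table was summed per gene, and TPM was rescaled to coding TPM. TMM in edgeR 4.0.16 under R 4.3.3 set the scale of the counts, 1 count was added as a prior, and ratios needed a mean count of 100. Counts were rounded to whole numbers for TMM and the exact conditional binomial test, whose p-values were adjusted over all 11542 genes tested. This test compares these libraries and covers counting error only, as do the floors, because without molecular identifiers a read need not be a separate molecule. With 1 group there was no test between groups. The ratios, the test and TMM were tested on simulated data.

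Each core gene's coding sequence was compared with all GENCODE M21 transcripts on the same strand (BLAST 2.17.0, at least 90% identity and 80% coverage), and each copy was given to the gene it matched best. The reference genome is of another strain than the CAST parent, and strain differences were not examined. Start-site windows came from RefSeq. Python 3.11.15, numpy 2.4.6, pandas 2.3.3, scipy 1.17.1 and matplotlib 3.10.9 were used, and DESeq2 1.42.0 for an alternative scaling.

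The members, lists and rules were chosen with earlier results of these data known. Genes were named by rule: all 14 genes outside the core, the 10 highest and 5 lowest core genes, the 10 furthest apart between libraries and between quantifications with their -ps pseudogenes, Rplp0, Rplp1, Rplp2 and Rpsa, and Fau and Rack1. Names outside it illustrate a group. A few items are not reported here by name. Sequences on chromosome 18 were not printed.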

Additional observations from a re-analysis of the deposited data

How the results depend on the processing

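Of 47 alternatives, 33 left the value within the spread between libraries or the count within 1.5 times, and 14 did not. For the subunit medians and the share, leaving out a library could not exceed that spread, because the main value averages the 2 libraries. Under the other settings these levels all moved, except the large-subunit median with posterior means. The number of genes 2-fold apart between libraries, 3 in the main analysis, was 19 with total expected counts and 0 with copies summed over the 74 core genes that have them, of which only Rpl10 was among the 3. The median log2 ratio between libraries was -0.065 with spike-in totals and -0.82 with total counts, against 0.065, and the median of coding genes moved with it. The number 2-fold apart between quantifications was 12, and it was 7 with -ps pseudogenes added, 2 with copies summed, and 14 to 15 in a single library. That 2 is on counts over the same 74 core genes, of which 6 were 2-fold apart alone, so copies, unit and genes changed together. Both settings with copies summed were chosen after seeing the data. The median coding TPM of the large subunit was 918 in the second quantification and 205 as deposited TPM, against 757. For the small subunit it was 873, 218 and 772 with posterior means, against 800.4. The share of coding TPM was 7.68% in the second quantification, 6.48% with posterior means and 1.76% as counts, against 6.72%. Leaving out a library gave 732 to 781, 799 to 802 and 6.67% to 6.76%, and 85 to 86 detected genes. No paired analysis was possible because there is 1 group. With 2 libraries, an SD is itself imprecise, and reads shared with identical copies cannot be assigned at any depth.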
